A study of Mus musculus with 32 samples.

Results

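The genes described here are 10 regulators that set or hold back the commitment of fibroblast-like precursors to the fat lineage: Zfp423, Zfp521, Ebf1, Ebf2, Gata2, Gata3, Foxo1, Hes1, Pdgfra and Pdgfrb. They were taken by gene symbol from a table of 20560 genes, all 10 were in it, and all 10 passed the filter on low values in every comparison. RNA was sequenced from 3T3-L1 cells, a mouse embryonic fibroblast line used to model fat cell formation in culture. Cells carried 1 of 2 short hairpin RNAs (shRNAs) against Zbtb9, which encodes a protein with zinc fingers and a BTB domain, or a scramble shRNA as control. Cells of all arms were given dexamethasone, isobutylmethylxanthine and insulin from day 0, insulin alone from day 3 and plain medium from day 7. Each of days 0, 3, 7 and 11 had 4 control libraries, 2 libraries with shRNA 1 and 2 with shRNA 2, or 32 libraries in all. Day 0 was set after the cells had reached confluence, and every library came from the same cell line. The titles number the libraries as biological replicates without naming separate cultures, so the p-values measure only the spread between these samples, which may be technical.

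PDGF receptor alpha and beta are receptor tyrosine kinases that bind platelet-derived growth factors and mark stromal precursors, some of which become fat cells. Inside such precursors, the zinc finger protein ZFP423 and the EBF proteins favour the fat programme, and ZFP521, a close relative of ZFP423, opposes both. GATA2 and GATA3 keep precursors undifferentiated by restraining the master regulator PPARG and its C/EBP partners, HES1 is a repressor switched on by Notch signalling, and FOXO1 is a forkhead factor that insulin drives out of the nucleus.

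The libraries held 22280321 to 31073716 reads assigned to genes, as rebuilt from the deposited values. Values below are normalized reads, that is, those rebuilt reads scaled by a size factor for each library, and log2 changes and tests are on the deposited log2 values themselves. The deposited transform draws values together, so these log2 changes tend to be smaller than the log2 ratio of normalized reads. A gene is said to be called where limma's p-value, adjusted over all genes tested, was under 0.05. Zbtb9, the targeted gene, had few reads. It had 13.5 to 14.9 normalized reads in controls and 4.62 to 10.6 with knockdown at day 0, 6.35 to 12.6 and 0 to 8.99 at day 3, 12.7 to 22.3 and 4.87 to 9.28 at day 7, and 12.1 to 19.96 and 2.13 to 19.3 at day 11. The pooled fall was called at day 7 (log2 change of -0.35, SE 0.12, adjusted p = 0.0288) and at no other day tested, that with shRNA 2 alone also at day 11 (adjusted p = 0.0228). Overlapping gene models, Gm50253 and Gm50254, share 84.4% of the exon bases of Zbtb9 on the same strand and 8.39% on the opposite strand. At day 11 the library labelled shRNA 1 replicate 2 lay within the control range of Zbtb9. Without it, 7 members were called at day 11 between knockdown and control, as with it, while the number called between the shRNAs went from 7 to 3. Of 5 endothelial markers, all stayed under 50 normalized reads in every library. Of the leukocyte markers 4 of 5 were in the table and all but Cd68 stayed under 50, Ptprc, which marks all leukocytes, at 3 or fewer. Their sum was 46.7 to 80.6 in controls and 89.3 to 149.6 with knockdown at day 7, and 166.3 to 278.4 and 264.7 to 626.8 at day 11. Of the 3 skeletal muscle markers in the table all but Des stayed under 50 (Ckm at 3 or fewer), and the sum was 293.3 to 391.6 in controls and 547.0 to 669.2 with knockdown at day 7, and 261.1 to 315.8 and 499.7 to 568.6 at day 11. Of the 4 mural markers in the table all but Myh11 stayed under 50, and the sum was 22.3 to 39.4 and 38.3 to 77.0 at day 7. The 6 fibroblast markers (Col1a1, Col1a2, Col3a1, Dlk1, Thy1 and Dcn) summed to 589194 to 622958 normalized reads in controls and 474438 to 553287 with knockdown at day 0. The ranges were 224971 to 250632 and 192486 to 254309 at day 3, 444056 to 477763 and 337495 to 389156 at day 7, and 521365 to 590251 and 396389 to 557038 at day 11. All 6 adipocyte markers (Pparg, Cebpa, Fabp4, Adipoq, Plin1 and Lpl) were called higher with knockdown at days 3, 7 and 11, beside 14.6%, 24.9% and 16.8% of all genes. Their summed normalized reads were 19717 to 20316 in controls and 21954 to 23542 with knockdown at day 0, without overlap, 25208 to 30383 in controls and 41211 to 54506 with knockdown at day 3, 43588 to 47026 and 111921 to 176988 at day 7, and 51509 to 60308 and 97168 to 123859.9 at day 11. The part of any of these markers in the members' changes was not tested, and in bulk RNA fewer cells of a type and less RNA per cell cannot be told apart.

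Before induction, the PDGF receptors were the most expressed members in control cells and Ebf2 the least. Per kilobase of annotated exon, the scale used here wherever genes are compared in level, Pdgfra had 3107 ± 75.3 normalized reads per kb (SD, n = 4) and Pdgfrb 1512 ± 57.0. Zfp521 came next with 427 ± 19.7, followed by Ebf1 with 259 ± 6.92 and Hes1 with 193 ± 9.70. Gata2 had 141 ± 4.71, Gata3 104 ± 7.08, Zfp423 87.2 ± 6.88 and Foxo1 73.4 ± 5.33. Ebf2 was lowest, at 4.03 ± 0.84 per kb. No 2 neighbours in this order overlapped between their 4 libraries at day 0. So the repressor Zfp521 was expressed above its relative Zfp423, and Ebf1 far above Ebf2.

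The order changed with differentiation. At day 3 Hes1 (452 ± 21.6 per kb) stood level with Pdgfrb (422 ± 11.8), with overlapping libraries, and Foxo1 had moved from the ninth place to the fourth, at 235 ± 5.83. At day 7 Foxo1 (267 ± 8.28) and Zfp521 (267 ± 13.2) overlapped behind the receptors. At day 11 Pdgfra (1492 ± 89.4) and Pdgfrb (1079 ± 35.6) still led. Hes1 (218 ± 12.9) and Zfp521 (199.9 ± 13.0) overlapped in the next places, as did Zfp521 and Foxo1 (198 ± 17.1). In knockdown cells Pdgfra lay above Pdgfrb per kb with either shRNA at days 0, 3 and 7. At day 11 the receptors overlapped with shRNA 1 (618 and 527 for Pdgfra, 764 and 563 for Pdgfrb) and stood close together with shRNA 2 (1026 and 925 against 912 and 919).

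**Figure D1:**
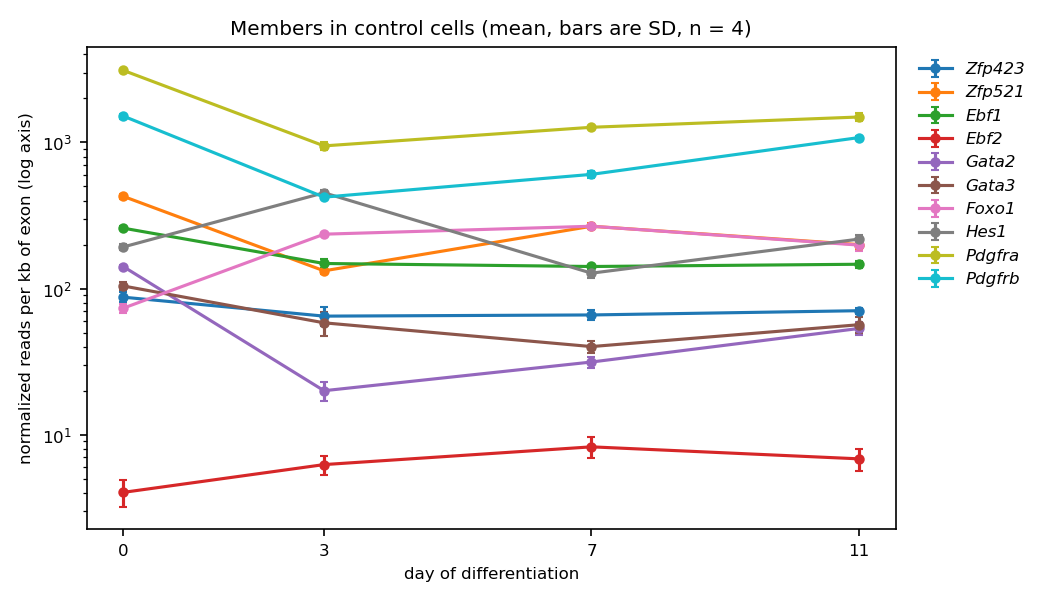
Mean normalized reads per kb of exon (log axis) of the 10 members in control cells against the day of differentiation, with SD bars over 4 libraries. Pdgfra stays highest, Ebf2 lowest, Gata2 drops from 141 to 19.99 per kb between days 0 and 3, and Foxo1 climbs from 73.4 to 235.

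All 10 members changed in control cells between day 0 and each later day, beside 76.6%, 69.1% and 64.6% of all genes at days 3, 7 and 11. These comparisons share the day 0 controls. From day 3 to day 7, 7 members were called (74.2% of all genes), and from day 7 to day 11, 7 were (55.0%). Since most genes were called, the number of members called says little, and the size and shape of each course is given with its gene. Of the 10, 7 were lower and 3 higher at day 3 (38.2% of all genes were called lower and 38.3% higher), 8 were lower and 2 higher at day 7 (35.8% and 33.3%), and 7 were lower and 3 higher at day 11 (31.6% and 33.0%). The members higher at day 3 were Foxo1, Hes1 and Ebf2.

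With Zbtb9 knockdown, 1 member was called at day 0 (Gata3, lower), 4 at day 3 (Foxo1, Hes1 and Ebf1 higher, Zfp521 lower), 7 at day 7 and 7 at day 11. Over all genes the shares called were 3.25%, 26.7%, 47.6% and 33.0%, of which 0.817%, 14.6%, 24.9% and 16.8% were higher and 2.44%, 12.1%, 22.6% and 16.2% lower. Nothing particular to the members is read from these counts. At day 7, Pdgfra, Pdgfrb and Zfp521 fell and Foxo1, Hes1, Ebf1 and Ebf2 rose, and at day 11 Gata2 fell as well while Hes1 was no longer called. Same-numbered libraries of day 11 deviated together in all 3 pairs of hairpins (correlations of 0.105 to 0.229), and with the replicate number as a block 1 of the 7 day 11 calls held, that of Foxo1. The adjusted p was then 0.0776 for Pdgfra, 0.12 for Zfp521, 0.0529 for Ebf2, 0.134 for Gata2, 0.159 for Pdgfrb and 0.212 for Ebf1. Knockdown libraries are numbered 1 and 2 only, so in that fit control replicates 3 and 4 carried no weight in the change. Over all genes, 1652 of 13281 were called with the block, against 4382 without it. Whether a batch or the smaller number of controls ended these calls was not tested. Libraries of the arms did not overlap for 2, 4, 7 and 5 members on the 4 days in turn, beside 13.9%, 28.3%, 44.2% and 34.3% of all genes. The members' median log2 change stayed near 0 on each day (0.015 at day 7, beside 0.0062 over all genes), with 4 members called higher and 3 lower at that time.

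**Figure D2:**
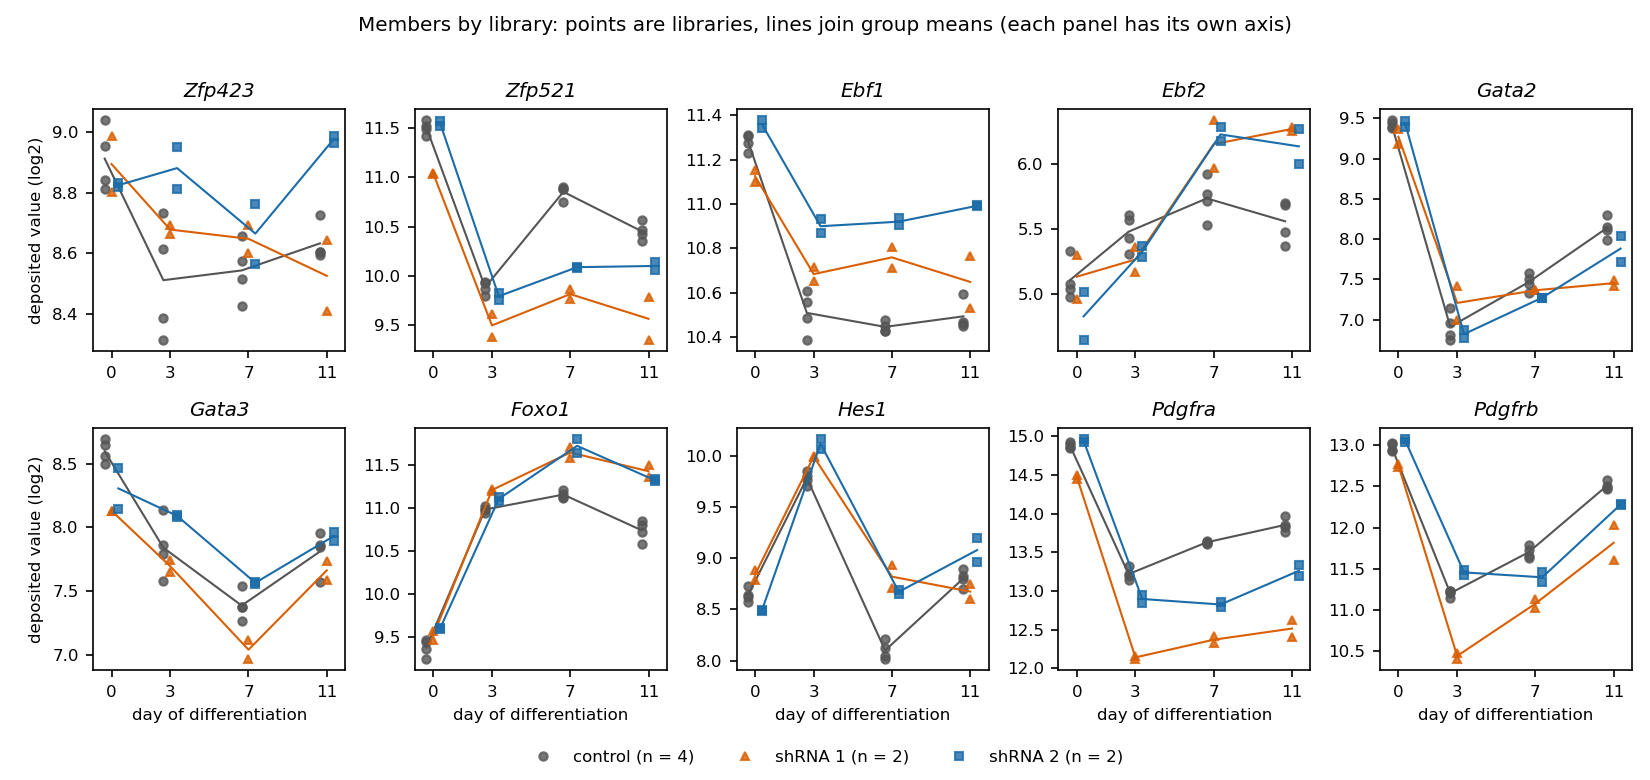
Deposited log2 value of each member against the day of differentiation, with 1 point per library and lines through group means, for control (grey circles, n = 4), shRNA 1 (orange triangles, n = 2) and shRNA 2 (blue squares, n = 2). At day 7 all 4 knockdown libraries lie below the controls for Zfp521, Pdgfra and Pdgfrb and above them for Ebf1, Ebf2, Foxo1 and Hes1.

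Start-site windows of 300 bases, from 250 before to 50 after the start, were held for 6 of the 10 members in RefSeq (build GRCm38.p6), 9 windows in all. The part upstream of the start is printed for Pdgfra, the member with the largest knockdown change at day 7, for Foxo1, higher in every knockdown library on all 4 days, and for Gata2, the member that fell most at induction. Lower case marks bases outside any searched motif and capitals mark a match to the EBF palindrome CCCNNGGG, which is the same on both strands.
Foxo1, chr3:52268087-52268335, plus strand: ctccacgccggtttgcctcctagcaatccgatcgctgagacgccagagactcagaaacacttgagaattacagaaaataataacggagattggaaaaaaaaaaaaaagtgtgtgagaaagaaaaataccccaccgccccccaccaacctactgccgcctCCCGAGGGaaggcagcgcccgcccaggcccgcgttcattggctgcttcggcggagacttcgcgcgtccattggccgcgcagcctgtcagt
Pdgfra, chr5:75152001-75152250, plus strand: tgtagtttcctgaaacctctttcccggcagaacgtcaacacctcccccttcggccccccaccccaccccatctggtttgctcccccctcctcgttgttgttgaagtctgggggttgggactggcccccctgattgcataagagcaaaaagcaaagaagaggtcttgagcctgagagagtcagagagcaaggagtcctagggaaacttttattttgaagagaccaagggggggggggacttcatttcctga
Gata2, chr6:88193641-88193890, plus strand: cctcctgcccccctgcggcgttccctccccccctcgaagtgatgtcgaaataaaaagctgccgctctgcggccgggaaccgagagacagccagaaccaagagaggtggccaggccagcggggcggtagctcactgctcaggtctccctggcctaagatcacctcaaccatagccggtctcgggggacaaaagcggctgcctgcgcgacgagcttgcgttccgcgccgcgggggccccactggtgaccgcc
The motif in Foxo1 begins at position -91 from the start. In Gata2 1 match begins at position 15, beyond the printed part, and 2 overlapping ones at -207 and -206 of a second window, while a second window of Zfp423 holds 1 at -28. No window of Pdgfra held a match. So 4 of the 9 windows held CCCNNGGG, as did 13.7% of the 32851 windows in the table. On both strands, the GATA motif AGATAA (11.2% of all windows), the FOXO motif TAAACA (13.4%) and the HES motif CACGCG (9.27%) were in none of the 9, which says only that these letters are absent from these windows. A match describes the sequence and is not a bound site.

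Pdgfra (ENSMUSG00000029231, chromosome 5 from 75152292 to 75198215, plus strand, GRCm38) showed the largest pooled knockdown change of the 10 at days 3, 7 and 11. Day 0 controls had 30267, 31529.9, 30799 and 31966 normalized reads, against 23707 and 22917 with shRNA 1 and 33004 and 32039 with shRNA 2. Before induction, then, shRNA 1 lay below every control and shRNA 2 above every control. Control cells lost most of this transcript by day 3 (8963, 9294, 9454 and 10222; log2 change of -1.67, SE 0.039, adjusted p = 1.02e-28) and regained part of it, with 12547, 12741, 12667 and 12914 at day 7 and 16174, 14639, 14047 and 14948 at day 11. The recovery from day 3 to day 7 was called (0.41, adjusted p = 1.5e-11). That from day 7 to day 11 (0.22, adjusted p = 7.37e-06) was lost in 1 fit of all 32 libraries (adjusted p = 0.332).

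Knockdown cells held less. At day 3, shRNA 1 gave 4447 and 4312 normalized reads of Pdgfra and shRNA 2 gave 7781 and 7281, all below the lowest control. At day 7 the values were 5343 and 4984 with shRNA 1 and 7330.1 and 6975 with shRNA 2, and at day 11 they were 6197 and 5285 and 10289.5 and 9269. No knockdown library reached the lowest control on days 3, 7 or 11. The knockdown mean was 0.484 times the control mean at day 7 (log2 change of -1.03, SE 0.11, adjusted p = 1.6e-05) and 0.519 times at day 11 (log2 change of -0.97, SE 0.20, adjusted p = 0.00722). The shRNAs differed in size at day 3, and the pooled change of -0.70 just missed the threshold (adjusted p = 0.0524). Of 17 alternatives, 8 called this pooled change and the rest did not, with adjusted p up to 0.248. It passed without shRNA 2 replicate 1 (0.0183), without shRNA 2 replicate 2 (0.0442) and, among other settings, with the shRNAs as separate groups (2.11e-17). That last fit leaves the difference between the shRNAs out of its spread. Each shRNA alone was called at day 3, with log2 changes of -1.08 and -0.32, measured against the same controls. Antisense gene models cover 6.21% of the exon bases of Pdgfra, and whether counting used strand is not given in the sources used here.

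Pdgfrb (ENSMUSG00000024620, chromosome 18 from 61045150 to 61085061, plus strand) followed the same course in controls. From 7991, 8603, 8039.8 and 8497 normalized reads at day 0 it fell to 2221, 2364, 2311 and 2349 at day 3 (log2 change of -1.78, SE 0.037, adjusted p = 6.47e-30). It then rose to 3207, 3155, 3509 and 3366 at day 7 and 6185, 5787, 5758 and 5905 at day 11, with both steps called (log2 changes of 0.50 and 0.81). Controls of successive days did not overlap.

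The shRNAs moved Pdgfrb in opposite directions at day 3. Libraries with shRNA 1 held 1295 and 1369 normalized reads, below every control, and libraries with shRNA 2 held 2720.0 and 2828, above every control. Both changes were called (-0.76, adjusted p = 7.11e-15 with shRNA 1 and 0.25, adjusted p = 0.000116 with shRNA 2), and so was the difference between the shRNAs (log2 change of 1.02, SE 0.057, adjusted p = 8.15e-16). The pooled change of -0.25 therefore describes neither. At day 7 both were lower, with 2189.9 and 2032 and 2543 and 2775 normalized reads (pooled log2 change of -0.46, SE 0.081, adjusted p = 0.000301). On day 11 shRNA 1 gave 4185 and 3083 and shRNA 2 gave 4996 and 5032, all below the lowest control (pooled log2 change of -0.46, SE 0.14, adjusted p = 0.0293). Leaving out shRNA 1 replicate 1 ended the day 11 call (adjusted p = 0.07) as did leaving out control replicate 1 (0.0726), 2 (0.0586), 3 (0.0593) or 4 (0.0628).

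The balance of the receptors shifted towards beta with knockdown at days 3, 7 and 11. The difference of deposited log2 values within a library, which carries the transcripts' lengths and is used here only to compare arms and days, was for Pdgfra minus Pdgfrb a mean of 1.91 in day 0 controls and 2.02, 1.93 and 1.35 in those of days 3, 7 and 11. With shRNA 1 the difference was 1.73, 1.70, 1.296 and 0.70 on those days, and with shRNA 2 it was 1.89, 1.44, 1.43 and 0.98. Control libraries ranged from 1.84 to 2.00 at day 7 and from 1.298 to 1.40 at day 11, above every knockdown library. These differences are given as a description, with no test.

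**Figure D3:**
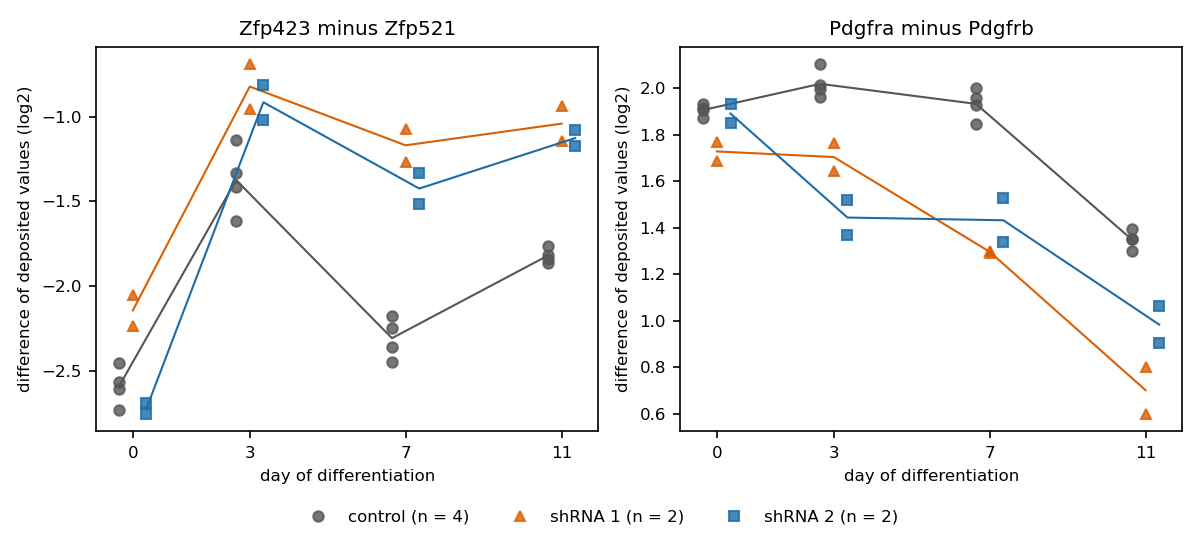
Difference of deposited log2 values within each library, Zfp423 minus Zfp521 on the left and Pdgfra minus Pdgfrb on the right, against the day of differentiation, with 1 point per library and lines through group means. At days 3, 7 and 11 every knockdown library lies above the controls in the left panel and below them in the right panel.

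Of 5 names listed for PDGF ligands and the receptor-like gene Pdgfrl, 4 were in the table and all 4 were tested. At day 7 all 4 were called lower, beside 22.6% of all genes, with a median log2 change of -0.75 beside 0.0062 over all genes. Pdgfa, which binds the alpha receptor, had 769.5 to 905 normalized reads in controls and 406 to 573 with knockdown (-0.80, adjusted p = 3.77e-06). Pdgfb, which binds both receptors, had 38.5 to 74.8 normalized reads in controls and 12.6 to 35.5 with knockdown (-0.79). Pdgfrl had 1669.7 to 1834 normalized reads in controls and 816 to 1301 with knockdown, and Pdgfc changed by -0.54. At day 11, 3 of the 4 were called lower (16.2% of all genes), Pdgfb by -0.72, Pdgfc by -0.52 and Pdgfa by -0.23. Pdgfrl (-0.69) and Pdgfa (-0.18) were called lower at day 3 (12.1%), and only Pdgfc (-0.25) was at day 0 (2.44%).

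Zfp521 (ENSMUSG00000024420, chromosome 18 from 13687013 to 13972787, minus strand) encodes the many-fingered nuclear repressor that opposes ZFP423 and EBF1 in precursors. Controls had 2827, 3044, 2974 and 3159 normalized reads at day 0, 959, 917, 872 and 967 at day 3, 1943, 1911, 1738 and 1909 at day 7 and 1524, 1308, 1417 and 1371 at day 11. The transcript thus fell at induction (log2 change of -1.62, SE 0.048, adjusted p = 1.6e-25), came back by day 7 (0.97, adjusted p = 9.04e-19) and fell again by day 11 (-0.40). At day 7 the shRNA 1 libraries held 916 and 849 and the shRNA 2 libraries 1073 and 1080.3, all below the lowest control. Knockdown cells had 0.522 times the control mean at that time (log2 change of -0.90, SE 0.074, adjusted p = 1.09e-07). Libraries of day 11 held 863 and 625 with shRNA 1 and 1057 and 1117 with shRNA 2, again without overlap (log2 change of -0.62, SE 0.16, adjusted p = 0.015).

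Earlier changes of Zfp521 rested on shRNA 1. At day 0 it held 2145 and 2141 normalized reads with shRNA 1 (-0.46, adjusted p = 6.36e-10) and 3039.9 and 3153 with shRNA 2, which lay within the control range. At day 3 the values were 761 and 642 and 847 and 890.5, and the shRNAs differed from each other (0.30, adjusted p = 0.00757), a call lost with no filter (0.0659) and without replicate 2 of shRNA 1 (0.237) or of shRNA 2 (0.079). The pooled change at day 3 was called by a narrow margin (log2 change of -0.24, SE 0.084, adjusted p = 0.0485). It was lost without shRNA 1 replicate 1 (adjusted p = 0.0926) or 2 (0.124), without control replicate 1 (0.121), 2 (0.094), 3 (0.0602) or 4 (0.127), and with no filter (0.121).

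Zfp423 (ENSMUSG00000045333, chromosome 8 from 87661810 to 87959595, minus strand), the factor that commits precursors to the fat lineage, changed little. In controls it went from 453, 504, 537 and 463 normalized reads at day 0 to 309, 426, 328 and 389 at day 3, 402, 338, 378 and 361 at day 7 and 425, 384, 387 and 386 at day 11. Each later day was lower than day 0 (-0.40, -0.37 and -0.28, all called), and neither day 7 against day 3 (0.032) nor day 11 against day 7 (0.089) was called. No pooled knockdown change was called at any day by limma, with log2 changes of -0.053, 0.27, 0.11 and 0.12. The day 3 change had an adjusted p of 0.0578 and passed without shRNA 1 replicate 1 (0.0467) or control replicate 2 (0.0269). With shRNA 2 the gene was higher than control at day 3 (503 and 452 normalized reads; log2 change of 0.37, SE 0.099, adjusted p = 0.0039) and at day 11 (517 and 508; log2 change of 0.34, SE 0.089, adjusted p = 0.00592). With shRNA 1 it had 404 and 414 at day 3 and 398 and 333 at day 11. The day 3 call of shRNA 2 was lost without its replicate 1 (adjusted p = 0.0894) and with no filter (0.0666).

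The difference of deposited log2 values between Zfp423 and Zfp521 was narrower with knockdown at days 3, 7 and 11. As Zfp423 minus Zfp521, and likewise not a comparison of their levels, it was -2.59 in day 0 controls and -1.37, -2.31 and -1.82 in those of days 3, 7 and 11. With shRNA 1 it was -2.14, -0.82, -1.17 and -1.04 on the 4 days, and with shRNA 2 -2.72, -0.91, -1.42 and -1.13. Control libraries spanned -1.62 to -1.14 at day 3 and -2.45 to -2.17 at day 7, apart from every knockdown library. At day 0 it was narrower with shRNA 1 and not with shRNA 2. No test was made of these differences.

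Ebf1 (ENSMUSG00000057098, chromosome 11 from 44617317 to 45008091, plus strand) encodes a helix-loop-helix factor that binds beside PPARG target genes and favours fat cell formation. Its controls fell from 2514, 2569, 2434 and 2583 normalized reads at day 0 to 1320.2, 1419.5, 1498 and 1552 at day 3 (log2 change of -0.77, SE 0.046, adjusted p = 6.8e-17) and then stayed level, at 1385, 1361, 1362 and 1413 on day 7 and 1539, 1394, 1404 and 1383 on day 11. Knockdown cells held more. Libraries with shRNA 1 had 1679 and 1602 at day 3 and 1794 and 1672 at day 7, and those with shRNA 2 had 1874 and 1961 and 1922 and 1969.7. All of these lay above the highest control of their day (0.28, adjusted p = 0.00659 at day 3 and 0.39, adjusted p = 4.19e-05 at day 7). At day 11 the values were 1740.1 and 1468 with shRNA 1, of which 1 overlapped the controls, and 2047 and 2051 with shRNA 2 (pooled log2 change of 0.33, SE 0.095, adjusted p = 0.0219). That call was lost without shRNA 2 replicate 2 (adjusted p = 0.0552) or without control replicate 2 (0.059), 3 (0.0592) or 4 (0.0608). At day 0, shRNA 1 lay below the controls with 2301 and 2213 (-0.16, adjusted p = 0.00421, and 0.0918 without its replicate 2) and shRNA 2 had 2704 and 2642.

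Ebf2 (ENSMUSG00000022053, chromosome 14 from 67233292 to 67430918, plus strand), a relative known from brown and beige fat precursors, was rare. Controls had 23.6, 26.3, 25.3 and 36.5 normalized reads at day 0, 49.4, 47.6, 40.8 and 35.1 at day 3, 68.9, 58.8, 45.6 and 55.4 at day 7 and 54.5, 43.0, 38.0 and 53.9 at day 11. Alone among the members besides Foxo1, it was higher than at day 0 on all 3 later days (0.37, 0.63 and 0.45), although the day 3 call was lost when libraries were rescaled to equal totals (adjusted p = 0.0641). Hes1 was higher at days 3 and 11 only. For Ebf2, knockdown and control libraries overlapped at days 0 and 3 and not at days 7 and 11. At day 7 the shRNA 1 libraries held 72.0 and 103 and the shRNA 2 libraries 88.1 and 97.4 (log2 change of 0.45, SE 0.13, adjusted p = 0.00744), and at day 11 98.0 and 95.4 and 74.4 and 96.7 (log2 change of 0.64, SE 0.12, adjusted p = 0.00187), which was 1.93 times the control mean. The deposited transform draws values together most at such read numbers, so here the log2 change understates the ratio of reads, as it does for Zbtb9, Pdgfb and Irf4. It does so less for genes with more reads. In simulated data the median of found over simulated log2 change was 0.9 to 0.94.

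Of 16 names listed as partners of EBF and ZFP423, 13 were in the table and 10 or 11 were tested per day. At day 7, 2 were called higher and 1 lower (24.9% and 22.6% of all genes), and at day 11, 3 higher and 4 lower (16.8% and 16.2%), with list medians of -0.0012 and -0.078. Zbtb18, a zinc finger and BTB repressor, was higher at day 3 (0.49), day 7 (272 to 297 normalized reads in controls and 466 to 699.5 with knockdown; 0.94) and day 11 (0.73). Tle3, a co-repressor known to act with PPARG in fat cells, was higher at day 3 (0.37) and day 7 (0.53). Ccn5, a matricellular protein known to form a complex with ZFP423 in precursors, was lower at day 0 (-0.26) and day 11 (-0.81), and at day 11 Zfp467 was lower as well (-0.63). Smad5, a signal carrier of BMP receptors, was lower at day 7 (-0.25). Ebf3, the third family member tested, was not called on any day by limma, with log2 changes from -0.15 to 0.077.

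Gata2 (ENSMUSG00000015053, chromosome 6 from 88193891 to 88207032, plus strand) made the steepest fall of the members in controls. Day 0 controls held 791, 737, 775 and 744 normalized reads and day 3 controls 92.6, 98.4, 111 and 129.7, 0.142 times the earlier mean (log2 change of -2.51, SE 0.088, adjusted p = 1.76e-23). The level then rose to 175, 166, 185 and 151 at day 7 and 325, 256, 280.3 and 289.8 at day 11, with both steps called (0.55 and 0.67). The controls of the 4 days did not overlap. Knockdown and control overlapped at days 0, 3 and 7, where limma called no pooled change (-0.073, 0.10 and -0.15). At day 11 shRNA 1 held 173 and 162 and shRNA 2 held 267 and 207, of which 3 libraries were below all controls and 1 was within their range (log2 change of -0.47, SE 0.13, adjusted p = 0.0185). Leaving out shRNA 1 replicate 1 (adjusted p = 0.0529) or control replicate 1 (0.063) ended that call, and the shRNAs differed (0.43, adjusted p = 0.0299, lost with no filter at 0.0595, with voom at 0.0607, and without shRNA 1 replicate 2 at 0.136 or shRNA 2 replicate 1 at 0.26).

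Gata3 (ENSMUSG00000015619, chromosome 2 from 9857078 to 9890034, minus strand) fell more slowly. Its controls held 381, 445, 402 and 428 normalized reads at day 0, 219.8, 233, 185 and 289 at day 3, 144, 157, 179.6 and 157 at day 7 and 233, 251, 185 and 230.3 at day 11. Day 7 was lowest (-1.21 against day 0, adjusted p = 6.1e-13) and day 11 higher again (0.42 against day 7). It was the member called between knockdown and control before induction, with 287 and 288 for shRNA 1 and 374 and 290.2 for shRNA 2, all below the lowest control (log2 change of -0.38, SE 0.091, adjusted p = 0.0488). The call ended with no filter (adjusted p = 0.085), after rescaling to equal totals (0.0561) and in 1 fit of all 32 libraries (0.0959). It also ended without shRNA 1 replicate 1 (0.0953) or 2 (0.109), shRNA 2 replicate 2 (0.0685), or control replicate 1 (0.0956), 2 (0.158), 3 (0.121) or 4 (0.132). At later days the arms overlapped. At day 7 the shRNAs lay on either side of the controls, with 127 and 111 for shRNA 1 (-0.35, adjusted p = 0.0185, and 0.182 without its replicate 2) and 183 and 185 for shRNA 2 (0.18, adjusted p = 0.24). Overlapping gene models share 1.94% of its exon bases on the same strand and 3.9% on the opposite strand.

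Of the 7 other GATA family members and cofactors listed, 5 were in the table and 4 were tested. At day 7, 3 were called lower, beside 22.6% of all genes, the FOG cofactors Zfpm2 (-0.41) and Zfpm1 (-0.36) and the atypical GATA factor Trps1 (-0.32), and the list median was -0.34. At day 3, 2 were called lower (12.1% of all genes), Gata6 (-0.24) and Trps1 (-0.24), and at day 11 1 was called higher (16.8%), Gata6 (0.33).

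Foxo1 (ENSMUSG00000044167, chromosome 3 from 52268336 to 52353221, plus strand) rose with differentiation. Control libraries had 676, 668, 575 and 627 normalized reads at day 0, 2038, 2040.4, 1979 and 2103 at day 3, 2251, 2327, 2407 and 2263 at day 7 and 1520.3, 1796, 1695 and 1859 at day 11. The day 3 controls held 3.21 times the day 0 mean (log2 change of 1.60, SE 0.052, adjusted p = 1.73e-24), and the level fell between days 7 and 11 (-0.41). All knockdown libraries lay above all controls on each of the 4 days. At day 0 the libraries held 678 and 730.3 with shRNA 1 and 750.1 and 746 with shRNA 2, without a pooled call (0.18, adjusted p = 0.153). By day 3 they held 2428 and 2374 and 2195 and 2263 (log2 change of 0.17, SE 0.046, adjusted p = 0.0118). Libraries of day 7 held 3432 and 3149.6 and 3283 and 3679 (log2 change of 0.53, SE 0.055, adjusted p = 1.28e-06), and at day 11 2956 and 2673 and 2623 and 2580.3 (log2 change of 0.63, SE 0.068, adjusted p = 4.01e-05). The day 11 knockdown mean was 1.58 times that of controls. The difference between the shRNAs was not called for Foxo1 on any day (0.077, SE 0.065, at day 7 and -0.11, SE 0.081, at day 11). An antisense model, Gm20402, covers 7.78% of its exon bases.

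Among the 18 genes listed as the rest of the FOXO family and textbook FOXO targets, all were tested. At day 7, 7 were called higher and 3 lower (24.9% and 22.6% of all genes), and at day 11, 13 higher and 2 lower (16.8% and 16.2%), with list medians of 0.11 and 0.40 beside 0.0062 and -0.012 over all genes. Klf15, a Krüppel-like factor of mature fat cells, had 315 to 395 normalized reads in controls and 1325 to 1943 with knockdown at day 7 (2.05) and 135 to 163 normalized reads in controls and 537 to 909.9 with knockdown at day 11 (2.04). Pnpla2, the adipose triglyceride lipase, was higher at day 3 (0.35), day 7 (0.92) and day 11 (1.24). Gadd45a, a DNA damage response gene, rose at day 3 (0.66) and Sesn3, a sestrin, fell (-0.47). Bcl6 rose at day 7 (0.64) and Ccng2, a cyclin of resting cells, at day 11 (0.94). Before induction Txnip (-0.34) and the cyclin-dependent kinase inhibitor Cdkn1a (-0.31) were lower, while at day 11 both were called higher (0.79 and 0.77). Many of these genes are also expressed in mature fat cells, whose markers rose on the same days, as given above.

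Hes1 (ENSMUSG00000022528, chromosome 16 from 30064384 to 30067796, plus strand) peaked early. Controls held 387, 391, 419 and 372 normalized reads at day 0, 868, 971, 938 and 907 at day 3, 264, 283, 243 and 248 at day 7 and 451, 440.1, 411 and 474 at day 11. The rise to day 3 (log2 change of 1.14, SE 0.065, adjusted p = 2.31e-17) and the drop to day 7 (-1.69 against day 3, adjusted p = 7.61e-22) left no overlap between days. By day 11 the level was back near that of day 0 (0.16, adjusted p = 0.0289). This last call was lost without day 0 control replicate 1 (0.0566) or 4 (0.0857), without day 11 control replicate 1 (0.0586) or 4 (0.0991), and after rescaling to equal totals (0.135).

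Knockdown cells held more Hes1 at days 3 and 7. At day 3 the values were 1071 and 1080.3 with shRNA 1 and 1139 and 1221 with shRNA 2 (log2 change of 0.27, SE 0.059, adjusted p = 0.00349). When controls were lowest, at day 7, they were 487 and 413 and 395 and 407, or 1.64 times the control mean (log2 change of 0.65, SE 0.086, adjusted p = 1.6e-05). No knockdown library overlapped the controls on either day. At day 11 the shRNAs parted, with 426 and 379 for shRNA 1 and 596 and 498 for shRNA 2, a difference of 0.41 (adjusted p = 0.0112, and 0.102 without shRNA 1 replicate 2 or 0.134 without shRNA 2 replicate 1), and the pooled change was 0.074 (adjusted p = 0.657). A difference of the other sign stood at day 0, where shRNA 1 had 471 and 439 and shRNA 2 351 and 348 (-0.35, adjusted p = 0.0032).

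For the rest of the Notch pathway, of 26 names, 22 were in the table and 17 to 20 were tested per day. At day 7, 3 were called higher and 7 lower (24.9% and 22.6% of all genes), with a median log2 change of -0.095, and at day 3, 3 higher and 2 lower (14.6% and 12.1%). The receptor Notch3 was lower on all 4 days (-0.28, -0.55, -0.58 and -0.67), with 493 to 676 normalized reads in controls and 354 to 383 with knockdown at day 7. Of the other receptors, Notch1 was called higher at day 3 (0.32), and Notch2 was not called on any day, with log2 changes from -0.095 to 0.046. The ligand Jag1 was lower at days 0 (-0.29), 7 (-0.24) and 11 (-0.27) and higher at day 3 (0.18). Among the other genes called were the coactivator Maml3 (-0.55 at day 7), the glycosyltransferase Lfng (0.68 at day 7 and 0.54 at day 11) and the target Hey1 (0.66 at day 11). Dlk1, the soluble preadipocyte factor related to Notch ligands, was higher at day 3 (0.36) and lower at days 7 (-0.24) and 11 (-0.33).

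Of 25 names of other genes known to restrain fat cell formation, 23 were in the table and 21 were tested. At day 7, 7 were called higher and 7 lower (median -0.11), beside 24.9% and 22.6% of all genes, and at day 11, 6 higher and 5 lower (median -0.030), beside 16.8% and 16.2%. The transcription factors Snai2 (-0.88 at day 7 and -0.89 at day 11), Sox9 (-0.83 at day 7) and Nr2f1 (-0.74 at day 11) fell. Irf4, an interferon regulatory factor that also acts in fat cells, rose from few reads at days 3, 7 and 11, with 14.6 to 20.7 normalized reads in controls and 49.9 to 85.7 with knockdown at day 7 (1.11). Ddit3, the stress factor CHOP, was lower before induction (-0.34) and higher at days 3 (0.36), 7 (0.55) and 11 (0.26). Snai1 was called higher at day 0 (0.36).

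Of 14 names listed as surface markers of mesenchymal precursors, 13 were in the table and 9 or 10 were tested. At day 0, 1 of 10 was called lower, Cd9 (-0.21), beside 2.44% of all genes. At day 3, 6 of 9 were called lower (12.1% of all genes), at day 7 6 were lower (22.6%) and 1 higher (24.9%), and at day 11 5 were lower (16.2%) and 1 higher (16.8%). The medians were -0.15, -0.26, -0.44 and -0.36. The adhesion molecule Vcam1 had 2809 to 3092 normalized reads in controls and 1129 to 1443 with knockdown at day 7 (-1.16) and 6954 to 8741 normalized reads in controls and 1736 to 4677 with knockdown at day 11 (-1.33). Ly6a, the stem cell antigen Sca-1, was called lower at day 3 (-0.64), day 7 (-0.76) and day 11 (-0.78), as was Thy1 (-0.45, -0.77 and -0.58). The exception was F3, tissue factor, called higher at days 7 (0.32) and 11 (0.25).

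Each shRNA was also compared with the same controls on its own. With shRNA 1, 5, 6, 8 and 6 members were called on days 0, 3, 7 and 11, beside 34.7%, 39.4%, 52.0% and 43.6% of all genes. With shRNA 2 the counts were 2, 5, 7 and 7, beside 17.6%, 31.4%, 46.0% and 36.9%. Between the shRNAs, 5, 5, 4 and 7 members differed, beside 35.0%, 19.6%, 16.4% and 22.0% of all genes. Of these members 4, 5, 4 and 7 were higher with shRNA 2, as were 18.6%, 10.6%, 7.52% and 11.6% of all genes. The count at day 3 was 2 without replicate 2 of shRNA 1 or of shRNA 2, that at day 7 was 2 without shRNA 1 replicate 2, and that at day 11 was 3 without shRNA 1 replicate 2. The 2 members called with shRNA 2 at day 0 became 0 without its replicate 2 and 1 without its replicate 1 or control replicate 2 or 3. Pdgfra, Pdgfrb and Zfp521 were higher with shRNA 2 than with shRNA 1 on all 4 days. At day 11 Pdgfra changed by -1.34 with shRNA 1 and -0.59 with shRNA 2, and the difference of 0.75 was called (adjusted p = 8.72e-06). Zfp521 changed by -0.89 and -0.35 (difference adjusted p = 0.00456). The shRNA 2 call for Zfp521 was lost without its replicate 1 (adjusted p = 0.107) or 2 (0.0544). For Pdgfrb at day 11 the change was -0.69 with shRNA 1 and -0.23 with shRNA 2, and the latter missed the threshold (adjusted p = 0.063) but passed it without shRNA 1 replicate 1 (0.00106) or 2 (0.00107), with the replicate number as a block (0.0284) and after rescaling to equal totals (0.0396). Ebf2 showed no call between the shRNAs on any day (-0.30, 0.060, 0.075 and -0.13, with SE from 0.17 to 0.18).

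**Figure D4:**
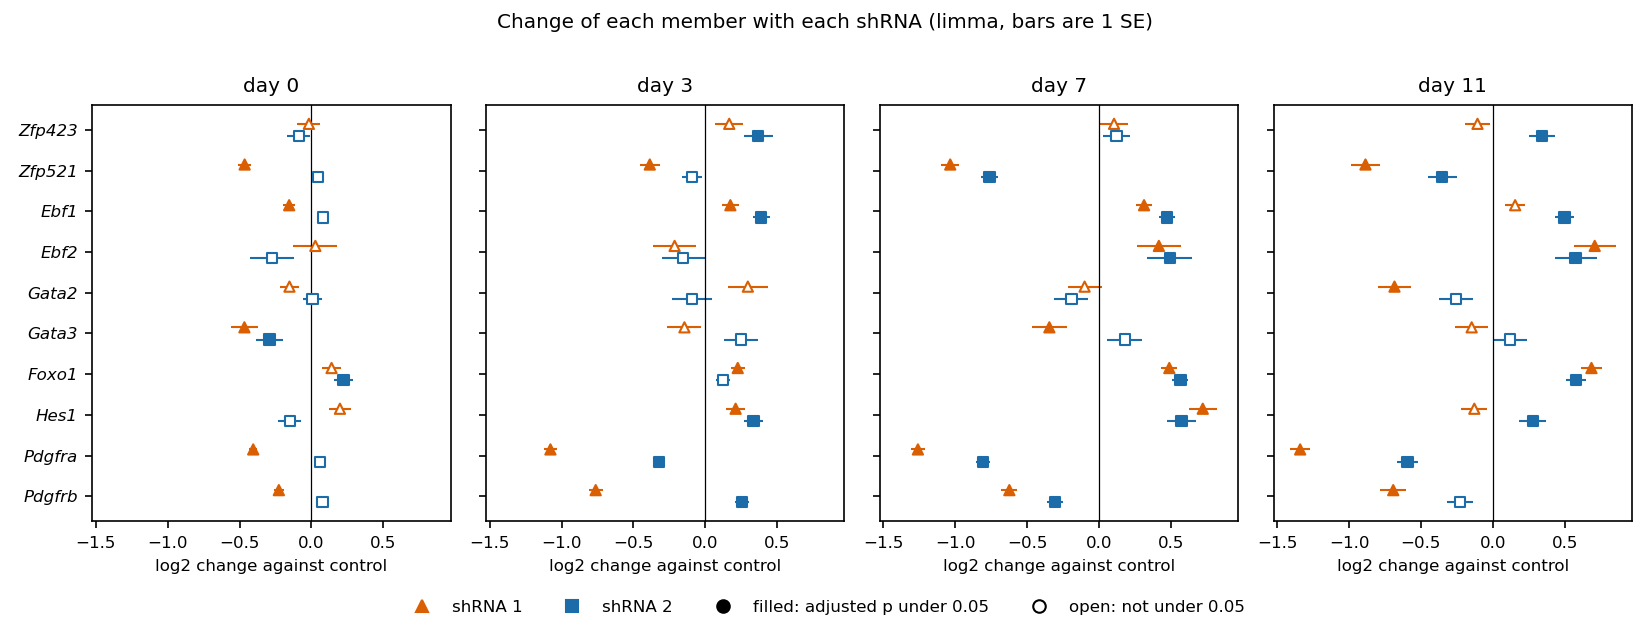
Log2 change of each member against control with shRNA 1 (orange triangles) and shRNA 2 (blue squares) on each day, with bars of 1 SE from limma, filled where the adjusted p was under 0.05. The shRNAs point in opposite directions for Pdgfrb at day 3 (-0.76 and 0.25), and Pdgfra reaches -1.34 with shRNA 1 at day 11.

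Whether the knockdown change of a member differed from that at day 0 was tested over all 32 libraries. At day 3, limma called no member (3 had an unadjusted p under 0.05, and voom called 0), beside 6.57% of all genes. Ebf1 was called without shRNA 1 replicate 2 of day 3 or of day 11. At day 7 limma called 6, beside 29.9%, and at day 11 it called 4, beside 23.2%. With voom the counts were 6 and 5, the added member at day 11 being Gata2 (adjusted p = 0.0235, against 0.0859 in the main fit). The change grew downwards for Pdgfra (-0.86, adjusted p = 0.0121 at day 7 and -0.80, adjusted p = 0.0254 at day 11) and Zfp521 (-0.69, adjusted p = 0.00531 at day 7). It grew upwards for Ebf2 (0.58 and 0.77), Ebf1 (0.43 and 0.36), Foxo1 (0.35 and 0.45) and, at day 7, Hes1 (0.62, adjusted p = 0.000541). The day 11 call for Pdgfra was lost without shRNA 2 replicate 1 (adjusted p = 0.0566) or 2 (0.0535) of day 0, or shRNA 1 replicate 1 (0.0565) or 2 (0.0666) of day 11. For Pdgfrb (-0.39 and -0.39) no difference from day 0 was called, and with the shRNAs as separate groups both were (adjusted p = 5.31e-05 and 7.61e-05). That setting also called Gata2 (0.0148), Gata3 (0.03) and Zfp521 (0.000244) at day 11.

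Across the 32 libraries, which share the time course and the arms, the members fell into courses that ran alongside or against each other. Pearson's r of the deposited log2 values was 0.95 for Zfp521 and Pdgfra, 0.90 for Pdgfra and Pdgfrb, and 0.89 for Gata2 and Pdgfrb. It was -0.90 for Foxo1 and Pdgfra and -0.89 for Foxo1 and Gata2. The genes whose course was most like that of Pdgfra were Cul7 (r = 0.98) and Tle2 (0.98), and like that of Pdgfrb Rnf150 (0.98) and Nrp2 (0.97), a semaphorin receptor. Zfp521 ran closest to Scrn1 (0.98) and Rab3il1 (0.98). Gata2 ran closest to the contractile genes Tpm1 (0.98) and Myl9 (0.98), and Gata3 to the collagen gene Col5a2 (0.92) and Nfib (0.91). Foxo1 ran closest to Fabp4 (0.99), the fatty acid binding protein of fat cells, and Pex11a (0.98), a gene of peroxisomes. Ebf1 was most like Abcc5 (0.91) and Pcyt2 (0.91), Ebf2 like Ankzf1 (0.93), and Hes1 like Trib1 (0.94) and Tgfbr1 (0.94), a TGF-beta receptor. Zfp423 had no close match, its best being Abtb2 (0.69) and Daam1 (0.68).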

How the data were processed

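RNA-seq of 32 libraries was used. The submitters' processing notes name TopHat2 2.1.0, Bowtie2 2.2.6, SAMtools 1.3.1 and HTSeq 0.6.1; the build, annotation, strand setting and transform are not given in the sources used here. The deposited table, though named as normalized counts, holds log2 values in the form of a regularized log. Inverting it gave whole reads: 95.8% of values came within 0.1 of a whole number (20% would by chance), as did all those of the 10 members. Counting intervals on the reads of single libraries are not given, since such reads carry no molecular identifiers. The spread between libraries is given as SD or as limma's SE.

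limma 3.58.1 (R 4.3.3, trend and robust) was fitted to the deposited log2 values of genes with 2 to the power of the value of at least 10 in at least 4 libraries, with Benjamini-Hochberg adjustment over all genes tested. Each day had 1 fit of knockdown (both shRNAs) against control and 1 of the 3 hairpins, the time course used 16 control libraries, and differences between days all 32. On simulated data, limma recovered 100%, 98%, 97% and 97% of 1.5-fold changes for knockdown on days 0, 3, 7 and 11 (13197, 13148, 13275 and 13248 genes), with 6.1%, 3.41%, 8.37% and 5.29% of calls false. The simulation gave both shRNAs the same fold and every gene the same dispersion of 0.0024. In the data 16.4% to 35.0% of genes differed between the shRNAs on a day, so these rates do not carry over to the pooled tests. Gene positions and exon lengths are those of GENCODE M21 (GRCm38), matched by Ensembl ID, and promoters those of RefSeq. The members, gene lists and tests were chosen with earlier results of these data known. Besides the members and Zbtb9, the text names the 3 called genes of largest change per list and day and the 2 most correlated genes per member (mean log2 value of at least 6), of which 1 is not reported here. Other list genes named (Ebf3, Notch1, Notch2, Jag1, Dlk1, Ddit3 and F3 among them) were chosen after their values were seen. All 32 pairs of replicates differed by more than sampling noise (chi-square over its degrees of freedom of 3.00 to 11.8). Alternatives were other filters, scalings, tests and fits, a replicate block, and leaving out each library.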

Additional observations from a re-analysis of the deposited data

Results flagged for a closer look

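Within groups of 4 libraries, 6 of 80 groups tested had 1 library far from the other 3, and chance flags about 1 in 20 groups. Zfp423 at day 0 had a log2 value of 8.99 in shRNA 1 replicate 2, where the other knockdown libraries had 8.80 to 8.83, and at day 11 it had 8.73 in control replicate 1 (others 8.60). Control replicate 1 also stood apart for Ebf1 at day 11, at 10.60 (others 10.45 to 10.47). Zfp521 at day 7 had 10.75 in control replicate 3 (others 10.88 to 10.90). Ebf2 at day 11 had 6.0 in shRNA 2 replicate 1 (other knockdown libraries 6.25 to 6.28). Gata3 at day 0 had 8.47 in shRNA 2 replicate 1 (others 8.13 to 8.14).

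The members on which the shRNAs differed from each other, by limma with adjusted p-values, are flagged because both target Zbtb9. As log2 shRNA 2 minus shRNA 1, they were at day 0 Hes1 (-0.35), Zfp521 (0.51), Pdgfrb (0.30), Pdgfra (0.47) and Ebf1 (0.23), at day 3 Gata3 (0.39), Zfp521 (0.30), Pdgfrb (1.02), Pdgfra (0.76) and Ebf1 (0.22), at day 7 Gata3 (0.52), Zfp521 (0.27), Pdgfrb (0.32) and Pdgfra (0.46), and at day 11 Gata2 (0.43), Hes1 (0.41), Zfp521 (0.53), Pdgfrb (0.46), Pdgfra (0.75), Zfp423 (0.45) and Ebf1 (0.34). Of these 21 differences, 20 were towards a higher level with shRNA 2, the exception being Hes1 at day 0. They are not separate results, since Pdgfra, Pdgfrb and Zfp521 are counted on all 4 days. Over all genes, 2454 of 4621 called differences were higher with shRNA 2 at day 0 and 1398 of 2572 at day 3. At day 7 it was 1000 of 2183 and at day 11 1541 of 2916. Some were lost in other fits. Gata3 at day 3 was lost with no filter (adjusted p = 0.182) and without any 1 of the 4 shRNA libraries of that day (0.082 to 0.19), and at day 7 without shRNA 1 replicate 2 (0.122) or shRNA 2 replicate 1 (0.055) or 2 (0.0597). Ebf1 at day 3 was lost with no filter (0.113) and without replicate 2 of shRNA 1 (0.159) or of shRNA 2 (0.144). Leaving out shRNA 1 replicate 2 ended the calls of Zfp521 at day 7 (0.138) and of Ebf1 (0.0888) and Zfp423 (0.077) at day 11.

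The members on which the knockdown change differed from that at day 0 were, at day 7, Ebf2 (0.58), Hes1 (0.62), Zfp521 (-0.69), Pdgfra (-0.86), Foxo1 (0.35) and Ebf1 (0.43), and, at day 11, Ebf2 (0.77), Pdgfra (-0.80), Foxo1 (0.45) and Ebf1 (0.36). These comparisons share the day 0 libraries.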

How the results depend on the processing

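No log2 change of a called member reversed under any alternative. Of the counts of members called, these moved by over 1.5 times. Knockdown at day 0 (1 called) gave 0 with no filter, after rescaling to equal totals, with neither trend nor robust fitting and in 1 fit of all 32 libraries, and 4 with the shRNAs as separate groups. shRNA 2 against control at day 0 (2) gave 0 with no filter, 4 after rescaling and 0 with neither trend nor robust fitting. Knockdown at day 3 (4) gave 7 with the shRNAs as separate groups, and shRNA 2 against shRNA 1 at day 3 (5) gave 2 with no filter and 2 with neither trend nor robust fitting. The difference of the knockdown change from day 0 gave 4 in place of 0 at day 3 and 8 in place of 4 at day 11 with the shRNAs as separate groups. The cause of these differences was not tested.

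The replicate number of the titles was not taken to pair the libraries of all days, since same-numbered libraries correlated at -0.003 to 0.229 within days, over 0.1 in 3 of 12 pairs (the 3 of day 11), and at -0.10 to 0.13 between control days. With it as a replicate block, the count of members called went from 1 to 0 at day 0, from 4 to 0 at day 3, from 7 to 6 at day 7 (Ebf2 was lost, adjusted p = 0.121) and from 7 to 1 at day 11 for knockdown, and from 2 to 1 for shRNA 2 at day 0. Control replicates 3 and 4 have no knockdown library of the same number and carried no weight in these changes. Over all genes, the count for knockdown went from 430 to 0, 3506 to 845, 6328 to 4112 and 4382 to 1652 at days 0, 3, 7 and 11.

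Leaving out each library in turn, the count ranged from 0 to 1 for knockdown and 0 to 2 for shRNA 2 against control at day 0. It ranged from 2 to 5 at day 3, 2 to 4 at day 7 and 3 to 7 at day 11 between the shRNAs, and from 0 to 1 for the change at day 3 less that at day 0. Where a single library was left of an shRNA, it was assumed to vary like the other groups. For knockdown at day 7 the count stayed at 7 in all 8 such fits. After rescaling to equal totals, the median change over all genes shifted by over 0.1 in 1 comparison, control day 3 against day 0, to -0.12. Calls in the upward direction went from 50.1% to 38.6% of all calls there, from 25.1% to 43.3% for knockdown and 42.0% to 57.0% for shRNA 2 at day 0, from 53.2% to 42.5% for shRNA 1 and 45.8% to 61.9% between the shRNAs at day 7, and, for the difference of the knockdown change from day 0, from 56.2% to 42.4%, 56.0% to 40.7% and 53.6% to 40.1% at days 3, 7 and 11. Ebf2, Zbtb9, Irf4 and Pdgfb had few reads, which limits the precision of their values.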
